A study of Mus musculus with 9 samples.

Results

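The Notch receptors and targets described here are 7 mouse genes: the receptors Notch1 and Notch2, the protease gene Adam10, the nuclear partners Rbpj and Maml2, and the target genes Hes1 and Dtx1. They were chosen by name, with earlier results of these data known, so counts over them are not those of a blind choice. Every probe set of the array that names only 1 of them was taken, which gave 9 probe sets of 21640 that name a single gene, and 7 of 19937 genes tested. Rbpj and Maml2 have 2 probe sets each, and the one with the higher mean over all arrays stands for the gene in the tests. No filter on low values was used, so all 7 genes were tested.

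RNA of sorted mouse CD4 T cells was measured on 9 Affymetrix arrays, 3 in each of 3 groups, to ask what differs between T cells of allergic airway inflammation at an early and a late stage. Chronic Th2 cells came from lungs taken at day 104, after 12 weeks of ovalbumin aerosol with 2 challenges per week. Acute Th2 cells came from lungs taken at day 29, after aerosol on 3 days in a row. Before the aerosol, which held 1% ovalbumin, both kinds of mice were sensitised on days 1, 14 and 21 by 3 injections into the abdomen, each of 10 µg of the antigen with 1.5 mg of alum as adjuvant. The lung cells were sorted as CD4+ CD69+ ST2+. Naive cells came from spleens of sham-treated mice at day 29 and were sorted with a naive gate that includes CD4+ and CD44-. All cells of the 3 groups, the naive ones included, were activated after the sort by anti-CD28 and anti-CD3 antibodies over 8 h, per the labels. Tissue, sort, sensitisation and challenge all differ between either lung group and naive cells, and their parts in a difference cannot be told apart. Chronic cells also differ from naive and acute cells in the day of collection, 104 against 29. With no naive group at day 104, its part cannot be told apart either. The sources used here give no strain, age, sex or number of pooled mice. The titles call the arrays biological replicates, and nothing further says whether each came from separate animals, so p-values measure the spread between these arrays.

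Notch receptors are cut during maturation by furin, reach the cell surface, and bind Delta and Jagged ligands of a neighbouring cell. Ligand binding lets ADAM10 cut the receptor outside the membrane, gamma-secretase then cuts it inside the membrane, and the freed intracellular domain enters the nucleus. There it joins the DNA-binding protein RBPJ and a Mastermind-like coactivator and switches on genes such as Hes1, Dtx1 and Nrarp, while RBPJ without the receptor domain holds corepressors. In CD4 T cells, T cell receptor stimulation is known to raise Notch1 and to start its cleavage, and Notch with RBPJ is known to act on Gata3 and Il4 during Th2 differentiation.

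The arrays differed in ways that bear on these genes. Correlations between the arrays of a group over all genes lay between 0.98 and 0.99 in chronic Th2 cells, 0.987 and 0.996 in acute Th2 cells, and 0.938 and 0.991 in naive cells. Naive replicate 1 stood apart. The median log2 intensity of 9 genes induced early by T cell receptor stimulation was 9.95, 9.29 and 10.79 in chronic Th2 replicates 1 to 3, 10.66, 10.56 and 10.61 in acute Th2 replicates 1 to 3, and 8.44, 10.75 and 11.16 in naive replicates 1 to 3. Il2, the T cell growth factor gene, was at 5.07 in naive replicate 1, below the background level of 6.53 used here (the 95th percentile of 1027 olfactory receptor genes), against 11.33 and 11.27 in naive replicates 2 and 3. In addition, 4 probe sets with no listed gene lay at 8.63 or above on chronic Th2 replicates 1 and 2, acute Th2 replicate 1 and naive replicate 1, and at 7.10 or below on the other 5 arrays. These array sets of 4 and 5 were found after seeing the data, and no label says what they are. Cd44, which the naive gate excludes, was higher by 1.89 in chronic Th2 cells and by 1.93 in acute Th2 cells, and the Th2 regulator Gata3 by 2.98 and 3.07 (limma, adjusted p at most 0.00068 for these 4 values). Cd69, a marker of the lung gate and one of the 9 early genes, went the other way. It differed by -1.09 in chronic and -0.51 in acute Th2 cells and did not pass (limma, adjusted p = 0.158 and 0.683). Its level was 10.59, 12.08 and 12.20 in naive replicates 1 to 3, and between 10.22 and 11.34 in Th2 cells. Il1rl1, which encodes ST2 of the gates, was not analysed here. Markers of other cells lay mostly under background on every array: 5 of 6 B cell markers, 7 of 8 of macrophages and monocytes, 6 of 6 of dendritic cells, 5 of 5 of mast cells and basophils, 5 of 6 of lung epithelium, 3 of 6 of endothelium and stroma, and 1 of 2 of CD8 T cells. Of the genes of these 7 lists the B cell gene Cd79a alone was called against naive cells, as lower in chronic Th2 cells (limma, adjusted p = 0.0459), at values under background on all arrays, so no size is given. The 9 early genes gave 0 calls in either comparison with naive cells by limma, with 3 at an unadjusted p under 0.05 in chronic and 0 in acute Th2 cells. The naive SD, which includes naive replicate 1, was 1.84 for Nr4a3 and 1.86 for Tnf. Naive replicates 2 and 3 lay above all Th2 arrays for Tnf, Nr4a1, Nr4a3, Egr3, Nfkbid and Cd69, but not for Il2, Egr1 and Egr2. The 0 calls therefore do not show that the early genes were alike in Th2 and naive cells.

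The receptor Notch1 (probe set 10481056) was higher in both lung groups than in naive cells. Its log2 intensity was 10.28, 10.30 and 10.46 in chronic Th2 cells, 10.42, 10.59 and 10.59 in acute Th2 cells, and 10.01, 9.40 and 9.56 in naive cells. All 6 Th2 arrays lay above all 3 naive arrays, and the closest naive array was replicate 1. The difference of chronic Th2 from naive cells was 0.70 (SE 0.15), a 1.62-fold difference (limma, adjusted p = 0.0267). Acute Th2 cells differed from naive cells by 0.88 (SE 0.15), or 1.84-fold (limma, adjusted p = 0.00983). Chronic minus acute Th2 was -0.18, with a 95% interval from -0.53 to 0.16 (limma, adjusted p = 0.531). Without naive replicate 1 the differences from naive were larger, 0.87 in chronic Th2 cells (adjusted p = 0.000672) and 1.06 in acute Th2 cells (adjusted p = 0.000246). The acute call was lost without acute Th2 replicate 2 (0.85, limma adjusted p = 0.0514) or replicate 3 (0.85, adjusted p = 0.0522). The chronic call stayed only without naive replicate 1 or acute Th2 replicate 1, and without any other 1 array the difference was 0.57 to 0.73 with an adjusted p of 0.0529 to 0.08. Within the array set of naive replicate 1 the differences from naive were 0.29 in chronic and 0.42 in acute Th2 cells, and within the other set 0.99 and 1.11.

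Notch2 (probe set 10494595) encodes a receptor of the same family and was above background on every array. It measured 8.68, 8.84 and 9.0 in chronic Th2 cells, 8.76, 9.28 and 9.26 in acute Th2 cells, and 8.41, 8.51 and 8.35 in naive cells. Again no Th2 array overlapped a naive one, and acute replicate 1 lay with the chronic arrays. Notch2 rose by 0.68 (SE 0.15), or 1.6-fold, in acute Th2 cells (limma, adjusted p = 0.0327). Chronic Th2 minus naive was 0.42 (SE 0.15), with a 95% interval from 0.077 to 0.76, and did not pass (limma, adjusted p = 0.129). Chronic minus acute Th2 was -0.26, with a 95% interval from -0.60 to 0.079, so the stages were not shown to differ by this fit (limma, adjusted p = 0.405). With array weights, a setting that called 6721 of all genes, this difference passed (limma, adjusted p = 0.0124). With naive replicate 1 left out, the differences from naive were 0.41 in chronic (limma, adjusted p = 0.136) and 0.67 in acute Th2 cells (limma, adjusted p = 0.0322). The acute call depended on single arrays: it was lost without naive replicate 2 (adjusted p = 0.0631), naive replicate 3 (0.0938), acute Th2 replicate 2 (0.135), acute Th2 replicate 3 (0.139) or chronic Th2 replicate 2 (0.0638), with differences of 0.59 to 0.72. With the array set as a term, chronic Th2 minus naive was 0.50 and passed (limma, adjusted p = 0.0386). It passed in 3 of the 10 alternatives other than leaving out 1 array, this one included. The acute call was lost in 3 of these 10 (limma, adjusted p up to 0.0876). Within the array set of naive replicate 1 the differences from naive were 0.35 in chronic and 0.36 in acute Th2 cells, and within the other set 0.57 and 0.84. Chronic minus acute Th2 was -0.0035 within the former set (2 chronic arrays, 1 acute) and -0.27 within the latter (1 chronic, 2 acute). The stages are thus split unevenly over the array sets. Notch3 and Notch4 stayed near background, between 6.40 and 6.96 over the 9 arrays, and neither was called in any comparison.

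**Figure D1:**
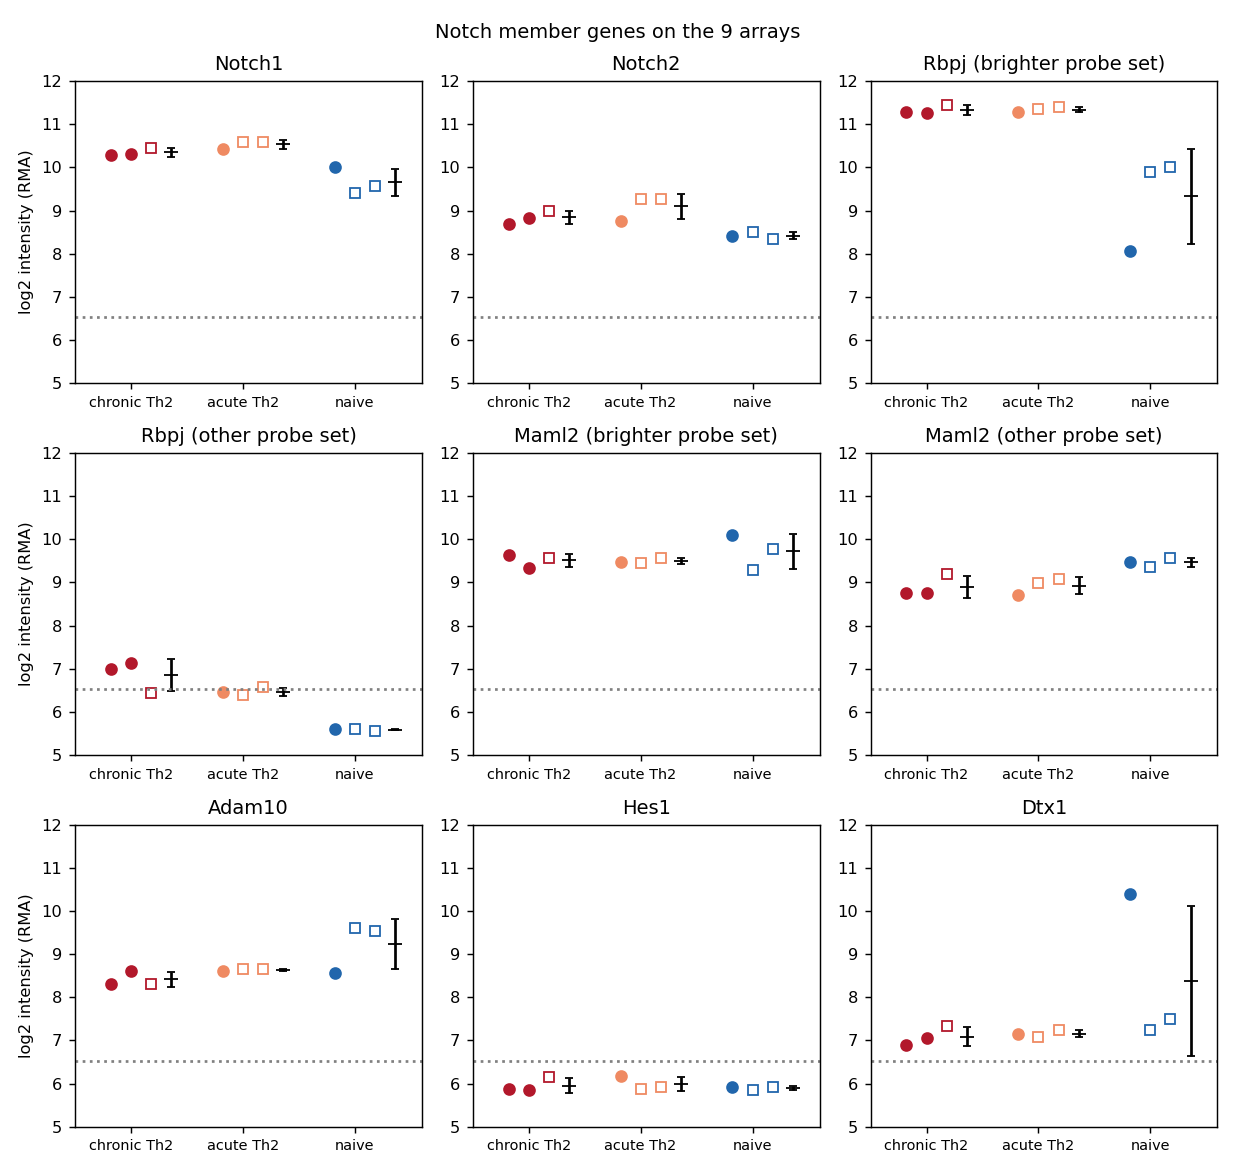
Log2 intensity of the 9 member probe sets (y axis) in chronic Th2, acute Th2 and naive cells, 1 point per array, with the mean ± SD of 3 arrays as a black bar and the background level of 6.53 as a dotted line. Filled circles are the 4 arrays and open squares the 5 arrays that unlisted probe sets set apart; Notch1, Notch2 and Rbpj are higher on all Th2 arrays, and naive replicate 1 lies far from the other naive arrays for Rbpj (8.06) and Dtx1 (10.39).

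Adam10 (probe set 10586844) encodes the protease of the ligand-dependent cut. Its level was 8.31, 8.61 and 8.32 in chronic Th2 cells, 8.61, 8.65 and 8.65 in acute Th2 cells, and 8.57, 9.61 and 9.54 in naive cells. Naive replicates 2 and 3 lay above all 6 Th2 arrays, while naive replicate 1 lay among them, so the groups overlapped. Over all arrays chronic Th2 minus naive was -0.83 (SE 0.25; limma, adjusted p = 0.0817) and acute Th2 minus naive -0.61 (SE 0.25; limma, adjusted p = 0.263), and neither passed. Without naive replicate 1 both passed, at -1.16 for chronic Th2 cells (limma, adjusted p = 0.000173) and -0.94 for acute Th2 cells (limma, adjusted p = 0.00063). Leaving out any other 1 array gave no call. Within the array set of naive replicate 1 the difference was -0.11 for chronic and 0.042 for acute Th2 cells, against -1.26 and -0.93 in the other set. All 3 chronic arrays lay below all 3 acute ones, though both neighbouring arrays read 8.61, with a mean difference of -0.22 and a 95% interval from -0.79 to 0.34 (limma, adjusted p = 0.642). Without naive replicate 1 this interval ran from -0.44 to 0.00061 (limma, adjusted p = 0.229). The related sheddase gene Adam17 also had naive replicates 2 and 3 on top, at 8.23, 8.34 and 8.67 in chronic Th2 cells, 8.25, 8.84 and 8.81 in acute Th2 cells, and 8.17, 9.56 and 9.02 in naive cells, and did not pass (limma, adjusted p = 0.345 for chronic and 0.795 for acute Th2 cells). Its differences of -0.51 in chronic and -0.28 in acute Th2 cells were -0.88 and -0.66 with naive replicate 1 left out, and the chronic one then passed (limma, adjusted p = 0.0276 for chronic and 0.106 for acute Th2 cells). Of the 8 protease genes measured, which include the gamma-secretase subunit genes Psen2, Ncstn, Aph1a, Aph1b, Aph1c and Psenen, 0 were called in either comparison with naive cells, and 2 had an unadjusted p under 0.05 in each. With naive replicate 1 left out, 0 were higher and 2 lower in chronic Th2 cells (Adam10 and Adam17), and 1 was higher (Psen2, limma, adjusted p = 0.0478) and 1 lower (Adam10) in acute Th2 cells.

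Rbpj (probe set 10521913), the gene of the DNA-binding partner of the receptor domain, showed the widest difference of the 7 genes. It measured 11.28, 11.25 and 11.45 in chronic Th2 cells, 11.28, 11.35 and 11.39 in acute Th2 cells, and 8.06, 9.90 and 10.02 in naive cells. The 6 Th2 arrays lay between 11.25 and 11.45, while naive replicate 1 lay far below the other naive arrays. Chronic Th2 cells exceeded naive cells by 2.00 (SE 0.44, 95% interval 1.00 to 3.00), or 4-fold (limma, adjusted p = 0.0288). Acute Th2 cells exceeded them by 2.02 (SE 0.44, 95% interval 1.01 to 3.02), or 4.04-fold (limma, adjusted p = 0.0318). The stages were at nearly the same mean, with a chronic minus acute difference of -0.014 and a 95% interval from -1.02 to 0.99 (limma, adjusted p = 0.989). That interval uses a spread shared over the 3 groups, naive replicate 1 included. Without that array it ran from -0.21 to 0.18 (limma, adjusted p = 0.924). The size of the differences from naive depended on naive replicate 1. Without it they were 1.37 (SE 0.0965) in chronic and 1.38 (SE 0.0965) in acute Th2 cells, with limma adjusted p of 3.26e-05 for chronic and 3.05e-05 for acute cells. Within the array set of naive replicate 1 they were 3.21 in chronic and 3.22 in acute Th2 cells, and within the other set 1.49 and 1.41. Both calls were lost when any 1 Th2 array was left out, with differences of 1.94 to 2.04 and limma adjusted p between 0.0519 and 0.116, and kept when any 1 naive array was left out.

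The other Rbpj probe set (10521911), annotated with a single separate transcript, was dim, and all its Th2 arrays lay above all its naive arrays. It was at 7.0, 7.12 and 6.44 in chronic Th2 cells, 6.45, 6.38 and 6.57 in acute Th2 cells, and 5.59, 5.59 and 5.57 in naive cells. All naive arrays were under background and lay between 5.57 and 5.59, naive replicate 1 included, and several Th2 arrays were under 6.53 as well. In a fit of all 34760 probe sets it was called higher in chronic (limma, adjusted p = 0.00461) and acute Th2 cells (limma, adjusted p = 0.0254). Against the background level in place of the naive values, the chronic mean was 1.25-fold higher, but this is not a lower bound. The background level is 1 value for all arrays, while the median of the olfactory receptor genes differed between arrays. It was 5.64 and 5.50 on chronic replicates 1 and 2, and 5.14 on chronic replicate 3, where this probe set was under background. The acute mean of 6.47 was itself under background, with 1 of 3 arrays above it, so no fold is given, and the size of a change in Rbpj transcripts cannot be read from this probe set. Chronic replicates 1 and 2, of the array set with higher unlisted probe sets, gave the highest values of this probe set. Acute replicate 1 (6.45) and naive replicate 1 (5.59), of the same array set, did not stand above the other arrays of their groups in this way. The parts of the array set and of the olfactory receptor level in these values were not tested.

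The promoters of Rbpj, Notch1 and Notch2 are shown because these 3 members were higher together on all Th2 arrays, with the core letters of the RBPJ motif as a landmark. The windows are from RefSeq on GRCm38.p6, 250 bases before to 50 bases after the annotated start, 5′ to 3′ on the gene's strand, and capitals mark TGGGAA or its reverse complement TTCCCA, the core of the RBPJ motif.
Rbpj, plus strand, chr5:53590096-53590395: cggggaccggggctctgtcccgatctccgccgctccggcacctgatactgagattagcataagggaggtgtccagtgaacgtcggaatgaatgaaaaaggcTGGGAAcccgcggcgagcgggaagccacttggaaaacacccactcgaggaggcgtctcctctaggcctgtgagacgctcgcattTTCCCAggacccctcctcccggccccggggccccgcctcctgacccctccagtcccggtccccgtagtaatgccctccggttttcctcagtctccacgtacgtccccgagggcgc
Notch1, minus strand, chr2:26503773-26504072: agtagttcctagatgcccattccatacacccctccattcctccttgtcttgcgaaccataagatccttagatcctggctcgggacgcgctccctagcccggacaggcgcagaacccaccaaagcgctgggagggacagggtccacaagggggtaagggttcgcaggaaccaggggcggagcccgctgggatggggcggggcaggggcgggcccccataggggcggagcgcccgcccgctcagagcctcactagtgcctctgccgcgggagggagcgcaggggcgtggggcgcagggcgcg
Notch2, plus strand, chr3:98013288-98013587: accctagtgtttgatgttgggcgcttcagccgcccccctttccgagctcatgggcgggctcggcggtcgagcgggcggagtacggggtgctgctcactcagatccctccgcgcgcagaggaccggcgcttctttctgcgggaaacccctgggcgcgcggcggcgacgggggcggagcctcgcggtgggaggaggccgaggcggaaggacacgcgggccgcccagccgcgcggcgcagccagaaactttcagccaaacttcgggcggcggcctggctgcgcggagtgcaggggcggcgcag
The Rbpj window holds the core 2 times, with TGGGAA at -149 to -144 from the start and TTCCCA at -65 to -60, and the windows of Notch1 and Notch2 hold none. A second, overlapping Rbpj window holds the nearer of these copies, and 1 of 2 Maml2 windows holds 1 copy. Of the 8 windows found for 6 of the 7 members, 3 hold the core, against 25.6% of all 32851 windows, and 3.79% of all windows hold it 2 or more times. The longer GTGGGAA, searched on both strands and containing the core, is in 6.38% of all windows and in 0 of the 8. These are matches of letters, not binding sites.

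Maml2 encodes a Mastermind-like coactivator, which bridges the receptor domain and RBPJ to acetyltransferases. Its brighter probe set (10583207) was at 9.63, 9.34 and 9.56 in chronic Th2 cells, 9.47, 9.45 and 9.56 in acute Th2 cells, and 10.10, 9.28 and 9.77 in naive cells. The naive arrays spanned all the Th2 arrays. Chronic Th2 minus naive was -0.21, with a 95% interval from -0.63 to 0.22 (limma, adjusted p = 0.496), and acute Th2 minus naive -0.22, with an interval from -0.65 to 0.20 (limma, adjusted p = 0.673). Chronic minus acute Th2 was 0.019, with an interval from -0.41 to 0.44 (limma, adjusted p = 0.965). The other Maml2 probe set (10598101) did not follow this layout: it was at 8.76, 8.74 and 9.19 in chronic Th2 cells, 8.71, 8.98 and 9.09 in acute Th2 cells, and 9.48, 9.35 and 9.57 in naive cells, with all naive arrays on top. Its differences from naive, -0.57 in chronic and -0.54 in acute Th2 cells, did not pass (limma over all probe sets, adjusted p = 0.0685 and 0.111). The brighter probe set differed from naive by -0.013 in chronic and -0.033 in acute Th2 cells without naive replicate 1. Its differences within the array set of naive replicate 1 were -0.62 in chronic and -0.64 in acute Th2 cells, and within the other set 0.037 and -0.019. The paralogue Maml3 was lower in both, as given below with the other nuclear genes, while Maml1 was not called.

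Hes1 (probe set 10434925), a repressor gene widely used as a readout of Notch activity, was under background on every array. It measured 5.87, 5.85 and 6.15 in chronic Th2 cells, 6.18, 5.88 and 5.92 in acute Th2 cells, and 5.92, 5.85 and 5.93 in naive cells. The groups overlapped throughout, and the whole span over 9 arrays was 5.85 to 6.18. Chronic Th2 minus naive was 0.058 (95% interval -0.20 to 0.32), acute Th2 minus naive 0.094 (-0.17 to 0.35) and chronic minus acute Th2 -0.036 (-0.30 to 0.22), with limma adjusted p of 0.764, 0.811 and 0.877. At a level under background such a probe set cannot show the absence of a difference in Hes1 transcripts.

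Dtx1 (probe set 10533182), which encodes the Deltex ubiquitin ligase and is both a target and a modulator of Notch, was far higher on 1 naive array than on the other 8 arrays. It was at 6.89, 7.05 and 7.34 in chronic Th2 cells, 7.15, 7.08 and 7.25 in acute Th2 cells, and 10.39, 7.25 and 7.50 in naive cells. Naive replicate 1 stood above every other array, the next being naive replicate 3, and naive replicate 2 lay within the Th2 range. Chronic Th2 minus naive was -1.29 (SE 0.70, 95% interval -2.88 to 0.30; limma, adjusted p = 0.274) and acute Th2 minus naive -1.22 (SE 0.70, 95% interval -2.81 to 0.37; limma, adjusted p = 0.476). Without naive replicate 1 these were -0.28 for chronic (limma, adjusted p = 0.218) and -0.21 for acute Th2 cells (limma, adjusted p = 0.488). Within the array set of naive replicate 1 they were -3.42 in chronic and -3.24 in acute Th2 cells, and within the other set -0.036 and -0.21. Chronic minus acute Th2 was -0.070, with an interval from -1.66 to 1.52 (limma, adjusted p = 0.966). Without naive replicate 1 this interval for Dtx1 ran from -0.36 to 0.22 (limma, adjusted p = 0.732). Its promoter window, shown since Dtx1 counts as a direct RBPJ target, holds none of the core letters.
Dtx1, minus strand, chr5:120711620-120711919: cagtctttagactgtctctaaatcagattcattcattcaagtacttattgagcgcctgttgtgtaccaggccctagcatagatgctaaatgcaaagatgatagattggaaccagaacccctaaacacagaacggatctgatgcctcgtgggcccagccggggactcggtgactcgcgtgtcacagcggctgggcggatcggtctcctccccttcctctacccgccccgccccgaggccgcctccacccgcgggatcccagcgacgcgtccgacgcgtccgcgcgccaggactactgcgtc

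**Figure D2:**
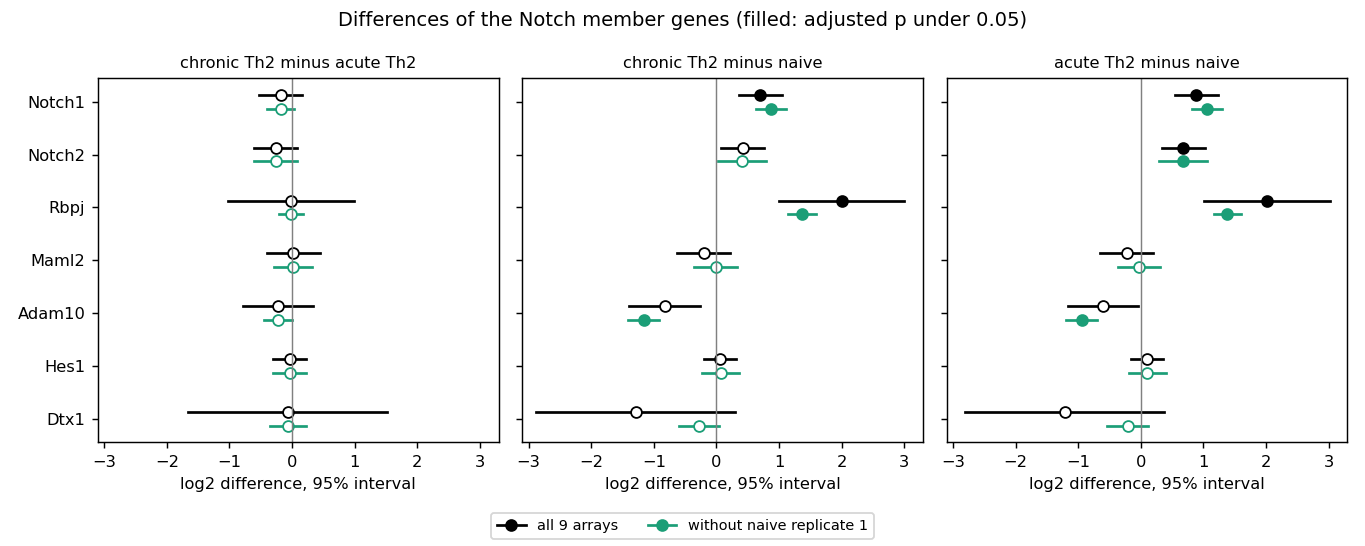
Log2 difference of each member gene (x axis) with its 95% interval in the 3 comparisons, from all 9 arrays (black) and without naive replicate 1 (green), with filled points at an adjusted p under 0.05. Between chronic and acute Th2 cells no member is filled, and leaving out naive replicate 1 narrows the intervals of Adam10, Dtx1 and Rbpj and brings the Rbpj difference from naive to 1.37 in chronic and 1.38 in acute cells.

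Counted over the members, 2 of 7 were higher and 0 lower in chronic Th2 than in naive cells, where 7.88% of all genes were called, 3.68% as higher and 4.2% as lower. In acute Th2 cells 3 of 7 were higher and 0 lower than in naive cells, where 5.87% of all genes were called, 3.67% as higher and 2.2% as lower. Between chronic and acute Th2 cells limma called 0 of 7, with 0 also at an unadjusted p under 0.05, and 0.0301% of all genes were called. Both comparisons with naive cells use the same 3 naive arrays, so their counts are not independent of each other. The medians over the 7 genes were 0.058 for chronic Th2 minus naive, 0.094 for acute Th2 minus naive and -0.070 for chronic minus acute Th2, beside 0.043, -0.030 and 0.043 over all genes. Arrays did not overlap, with the Th2 side higher, for 3 of 7 members in chronic Th2 against naive cells (15.6% of all genes) and 3 of 7 in acute Th2 against naive cells (8.8% of all genes). Between the Th2 groups this held for 1 of 7, Adam10, lower in chronic cells (10.8% of all genes). With 3 arrays against 3 the smallest two-sided p of an exact permutation test is 0.1, so no such test is given. Without naive replicate 1 the members called were 3 of 7 in chronic Th2 cells (2 higher, 1 lower), where 17.2% of all genes were called, 5.84% as higher and 11.4% as lower, and 4 of 7 in acute Th2 cells (3 higher, 1 lower), where 12.2% were called, 6.05% as higher and 6.11% as lower. Between the Th2 groups 0 of 7 were called without it, with 0.0602% of all genes called. In bulk RNA of sorted cells a smaller share of cells with a transcript and less transcript per cell cannot be told apart.

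Around the receptors, the list of genes that glycosylate and mature Notch held the largest difference of the pathway genes measured. Of 6 such genes, 1 rose and 2 fell against naive cells in each Th2 group. Furin, whose protease makes the first cut of the receptor and also matures many other proteins, was at 10.74, 10.81 and 11.42 in chronic Th2 cells, 11.30, 11.37 and 11.41 in acute Th2 cells, and 8.07, 8.60 and 8.85 in naive cells. That is 2.49 higher in chronic Th2 cells (adjusted p = 0.000296) and 2.86 higher in acute Th2 cells (adjusted p = 0.000131) by limma. Mfng, a fringe glycosyltransferase that tunes which ligands a Notch receptor answers, was at 7.33, 7.43 and 7.13 in chronic Th2 cells, 7.59, 7.45 and 7.33 in acute Th2 cells, and 8.76, 8.34 and 8.18 in naive cells. It fell by 1.13 in chronic Th2 cells (limma, adjusted p = 0.00314) and by 0.97 in acute Th2 cells (limma, adjusted p = 0.00719). Lfng, a second fringe gene, was at 7.75, 8.09 and 8.05 in chronic Th2 cells, 7.53, 7.99 and 7.98 in acute Th2 cells, and 10.40, 9.25 and 8.90 in naive cells, and fell by 1.55 in chronic and by 1.69 in acute Th2 cells (limma, adjusted p = 0.0286 and 0.0222). Furin and Mfng were called in all 9 fits that leave out 1 array, in both comparisons. Furin was 2.26 higher in chronic and 2.64 higher in acute Th2 cells without naive replicate 1. The Lfng call in chronic Th2 cells was lost without chronic Th2 replicate 1 or 2 or acute Th2 replicate 2 or 3 (limma, adjusted p up to 0.121), and that in acute Th2 cells without any 1 acute array (up to 0.0939). The third fringe gene Rfng, Pofut1, which adds the fucose that fringe enzymes extend, and Poglut1, which adds glucose to Notch, were not called. Poglut1 was lower by 0.69 in chronic Th2 cells when naive replicate 1 was left out (limma, adjusted p = 0.00938), against a difference of -0.39 over all arrays (limma, adjusted p = 0.332). Pofut1 was called in chronic Th2 cells only without chronic Th2 replicate 3 (limma, adjusted p = 0.034).

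Among the nuclear genes other than the members, Maml3 fell in both Th2 groups. It was at 6.71, 6.47 and 6.48 in chronic Th2 cells, 6.71, 6.40 and 6.46 in acute Th2 cells, and 7.68, 7.18 and 7.26 in naive cells. Replicates 2 and 3 of both Th2 groups were under background, as was the acute mean of 6.52, and the chronic mean of 6.55 was near it. The size of a change in Maml3 transcripts therefore cannot be read from these values. The differences were -0.82 in chronic (limma, adjusted p = 0.0125) and -0.85 in acute Th2 cells (limma, adjusted p = 0.0111). They were lost without chronic Th2 replicate 2 in chronic cells (adjusted p = 0.0572) and without acute Th2 replicate 2 or 3 in acute cells (up to 0.0579). Kat2a, a histone acetyltransferase gene, fell by 0.58 in chronic Th2 cells (limma, adjusted p = 0.0314), a call lost without naive replicate 2 or 3, chronic Th2 replicate 2 or any 1 acute array (adjusted p up to 0.0753). In all, 1 of the 9 genes of the nuclear activation complex rose and 2 fell in chronic Th2 cells, and 1 rose and 1 fell in acute Th2 cells, the riser being Rbpj in both. With naive replicate 1 left out, 2 rose in each group: the acetyltransferase gene Kat2b joined Rbpj, 0.84 higher in chronic and 1.00 higher in acute Th2 cells (limma, adjusted p = 0.00279 and 0.00125). Over all arrays Kat2b differed by 0.38 and 0.54 and did not pass (limma, adjusted p = 0.481 and 0.517). Of 6 corepressor genes measured, 0 rose and 1 fell in each. The gene that fell was Tle4, a Groucho-family corepressor, at 6.56, 6.70 and 7.23 in chronic Th2 cells, 7.01, 7.32 and 7.19 in acute Th2 cells, and 9.48, 8.19 and 8.33 in naive cells. It fell by 1.84 in chronic Th2 cells (limma, adjusted p = 0.011; up to 0.0586 and lost without chronic Th2 replicate 1 or 2) and by 1.50 in acute Th2 cells (limma, adjusted p = 0.0304; up to 0.114 and lost without chronic Th2 replicate 1 or 2 or any 1 acute array). The count of 0 risers depended on naive replicate 1. Without it Tle3, a paralogue of Tle4, was 0.64 higher in chronic and 0.72 higher in acute Th2 cells (limma, adjusted p = 0.00671 and 0.00452), and Spen was 0.41 lower in chronic Th2 cells (limma, adjusted p = 0.0166). Cir1 was called in acute Th2 cells only without acute Th2 replicate 1 (limma, adjusted p = 0.0335).

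Of 14 genes of endocytosis and turnover, which include the Deltex genes, 1 rose in chronic Th2 cells and 1 fell in acute Th2 cells. Neurl3, a Neuralized-family ubiquitin ligase gene, was 0.63 higher in chronic Th2 than in naive cells (limma, adjusted p = 0.0252; up to 0.0986 and lost without chronic Th2 replicate 1 or 2, acute Th2 replicate 2 or 3, or naive replicate 3). Fbxw7, whose product marks the freed receptor domain for destruction, fell in acute Th2 cells (limma, adjusted p = 0.0427; up to 0.158 and lost without chronic Th2 replicate 1 or 2, acute Th2 replicate 1 or 3, or naive replicate 2 or 3). Its levels were 6.19, 6.24 and 6.44 in chronic Th2 cells, 6.05, 6.45 and 6.20 in acute Th2 cells, and 6.72, 6.73 and 6.72 in naive cells, so that all Th2 arrays were under background and the acute mean was at least 1.15-fold lower than the naive one. In chronic Th2 cells Fbxw7 did not pass over all arrays (limma, adjusted p = 0.0562), and passed without acute Th2 replicate 1 or 2 or chronic Th2 replicate 3 (limma, adjusted p down to 0.0404). With naive replicate 1 left out, the counts were 2 higher and 1 lower in each group. The Deltex gene Dtx3 was then 0.45 higher in chronic and 0.58 higher in acute Th2 cells (limma, adjusted p = 0.0279 and 0.0112), and Dtx3l was 0.69 higher in acute Th2 cells (limma, adjusted p = 0.0113). Aak1, a kinase gene of endocytosis, was then 0.53 lower in chronic Th2 cells (limma, adjusted p = 0.0162), and it also passed without naive replicate 2. Over all arrays these 3 genes did not pass in either comparison (limma, adjusted p from 0.0568 to 0.895).

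**Figure D3:**
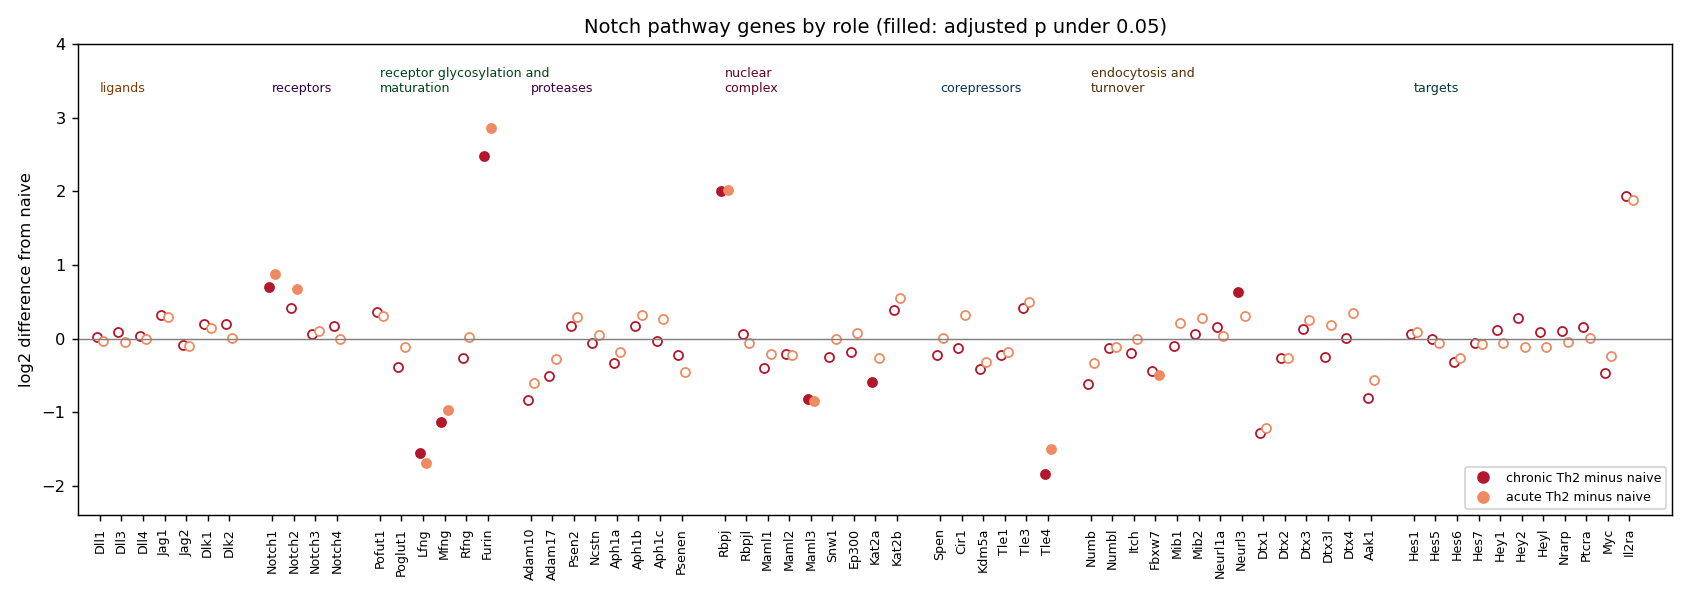
Log2 difference from naive cells (y axis) of the 65 measured Notch pathway genes, members included and grouped by role, for chronic Th2 (dark red) and acute Th2 (orange), with filled points at an adjusted p under 0.05. Furin and Rbpj stand highest among filled points, Tle4 and Lfng lowest, and the ligand genes hold no filled point.

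The ligand genes were dim. Of 7 (Dll1, Dll3, Dll4, Jag1, Jag2, Dlk1 and Dlk2), 4 were under background on every array, and 0 were called in either comparison with naive cells (limma), with 1 at an unadjusted p under 0.05 in each. Jag1 was called higher in chronic Th2 cells without naive replicate 1 (limma, adjusted p = 0.0442), at values under background on all arrays. Dlk1, a non-canonical ligand gene, lay between 7.18 and 7.59 over all arrays.

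The target list gave no call over all arrays. Of 12 genes, 0 rose and 0 fell in either comparison with naive cells (limma), with 2 at an unadjusted p under 0.05 in chronic and 1 in acute Th2 cells. Nrarp, a feedback inhibitor gene, was under background on all arrays, between 5.64 and 5.97, as was Hey2, between 4.21 and 4.79. Hes5, Hes6, Hes7, Hey1 and Heyl lay between 6.27 and 7.81, and the precursor T cell receptor gene Ptcra between 6.22 and 6.55. Myc and Il2ra, well above background, are targets that many other signals also control. Il2ra, the interleukin-2 receptor alpha gene, was at 13.30, 13.21 and 13.15 in chronic Th2 cells, 13.22, 13.16 and 13.13 in acute Th2 cells, and 9.39, 12.03 and 12.44 in naive cells. All Th2 arrays were on top, and naive replicate 1 was far below the rest. The differences from naive of 1.93 in chronic and 1.88 in acute Th2 cells did not pass over all arrays (limma, adjusted p = 0.113 and 0.176). Without naive replicate 1 they passed, at 0.98 in chronic and 0.94 in acute Th2 cells (limma, adjusted p = 0.000973 and 0.00145). Myc, the growth regulator gene, was at 11.26, 11.12 and 10.74 in chronic Th2 cells, 11.32, 11.41 and 11.10 in acute Th2 cells, and 10.19, 12.15 and 12.19 in naive cells. It too passed only without naive replicate 1 among the fits that leave out 1 array, at -1.13 in chronic and -0.89 in acute Th2 cells (limma, adjusted p = 0.00154 and 0.0062).

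**Figure D4:**
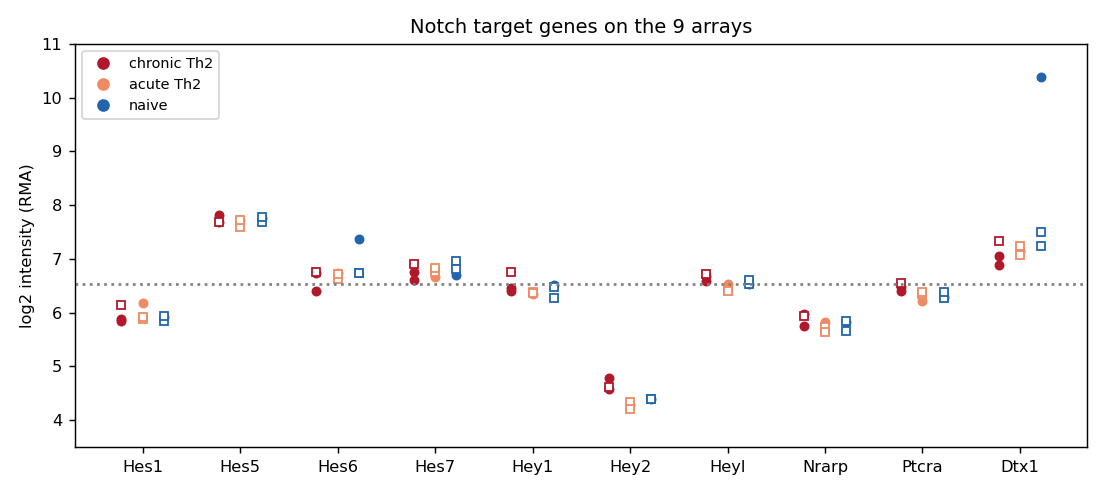
Log2 intensity (y axis) of 10 Notch target genes in chronic Th2, acute Th2 and naive cells, 1 point per array, with filled circles and open squares for the array sets of 4 and 5 arrays and the background of 6.53 as a dotted line. Most genes lie near or under background in all groups, and naive replicate 1 stands out for Dtx1 at 10.39.

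Over the 58 measured pathway genes other than the members, of 61 listed, 2 rose and 5 fell in chronic Th2 cells and 1 rose and 5 fell in acute Th2 cells. Their median difference was -0.067 in chronic and -0.023 in acute Th2 cells, beside 0.043 and -0.030 over all genes. These shares, 7 of 58 and 6 of 58, stand beside the 7.88% and 5.87% of all genes given above. Between chronic and acute Th2 cells limma called 0 of 58, with 6 at an unadjusted p under 0.05. Without naive replicate 1, 17 of 58 were called in chronic Th2 cells (7 higher, 10 lower) beside 17.2% of all genes, and 13 of 58 in acute Th2 cells (7 higher, 6 lower) beside 12.2% of all genes. Ncor1 was not analysed here.

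The levels of 5 members over the 9 arrays were also set beside the early genes of T cell stimulation, since naive replicate 1 was low for those. Naive replicate 1, with the lowest early-gene median of 8.44, had the lowest Rbpj of all arrays and the highest Dtx1. Its Adam10 lay below that of the other naive arrays, and its Notch1 was the highest of the naive arrays. Notch2 on naive replicate 1 lay between the other naive arrays. Tnf, one of the early genes, was at 6.98, 6.96 and 8.24 in chronic Th2 cells, 7.72, 8.5 and 8.24 in acute Th2 cells, and 7.65, 10.71 and 11.01 in naive cells. Whether the state of stimulation of naive replicate 1 has a part in these member values was not tested.

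**Figure D5:**
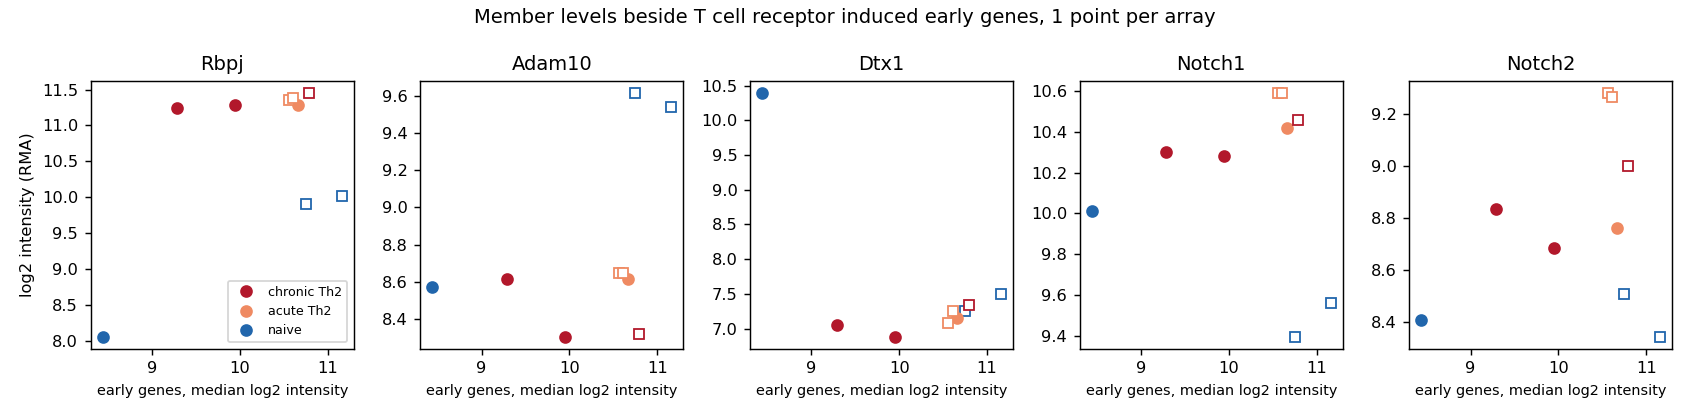
Log2 intensity of 5 member genes (y axes, each with its own range) against the median log2 intensity of 9 early genes of T cell stimulation (x axis), 1 point per array of chronic Th2, acute Th2 and naive cells, with filled circles and open squares for the array sets of 4 and 5. Naive replicate 1 is the leftmost point at 8.44, with the lowest Rbpj and the highest Dtx1.

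The genes most like each member over the 9 arrays differed from member to member. They were sought by Pearson's r among 1463 genes whose mean over all 9 arrays was above background, with an SD of at least 0.5 over the arrays. Since high groups can carry that mean, a gene may be under background in 1 group, as Mmp13 and Arg1 were on average in naive cells. The coefficient r is a description of 9 points that share groups and array sets. For Notch1 they were Dapp1 (0.983), Sh3bgrl (0.982) and Myo1g (0.981). For Notch2 they were Calcrl (0.978), Mmp13 (0.978) and Tnfaip8 (0.971), and Mmp13, a collagenase gene, averaged 8.34 in chronic Th2, 9.46 in acute Th2 and 5.88 in naive cells. Rbpj was followed most closely by Chmp4b (0.995), the cytokine signalling inhibitor gene Cish (0.995) and the hypoxia factor gene Hif1a (0.994). Cish averaged 10.55 in chronic Th2, 10.55 in acute Th2 and 9.03 in naive cells, with 7.92 on naive replicate 1. Dtx1 was followed by Ubald1 (0.993), Rasal3 (0.992) and Rab37 (0.988), which were at 9.70, 10.49 and 8.81 on naive replicate 1 with naive means of 8.83, 9.52 and 7.33. Adam10 was followed by Dhx33 (0.978), Lad1 (0.968) and Sptlc1 (0.968), and Maml2 by Snord82 (0.897), Atn1 (0.887) and Igflr1 (0.88). Hes1, which hardly varied, had no close neighbour, with Il17a (0.611), Arg1 (0.608) and Snord118 (0.598) nearest. Among the members themselves r was 0.836 for Notch1 with Notch2, 0.826 for Maml2 with Dtx1, -0.857 for Notch1 with Adam10 and -0.886 for Rbpj with Dtx1. Naive replicate 1 had the highest Dtx1 (10.39) and Maml2 (10.10) and the lowest Rbpj (8.06) of all arrays. Both coefficients with Dtx1 therefore lean on this 1 array, and r was not computed without it.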

How the data were processed

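RNA of 9 samples was hybridised to Affymetrix arrays. The authors deposited log2 intensities, 1 value for each array and probe set, which they made with RMA per the submitters' processing notes. These notes also name limma. The sources used here state no version, genome build or annotation. Levels have no depth, and the number of arrays limits precision. Of 34760 probe sets, 21640 name 1 gene, 1321 name several and were not used, and 11799 have none listed. The brightest probe set on average stood for a gene (19937 genes). Entrez identifiers matched a RefSeq gene table for 21553 probe sets and 0 symbols changed. All arrays were kept and grouped by title.

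For the comparisons, lmFit, contrasts.fit and eBayes of limma (version 3.58.1, R 4.3.3) were run two-sided on all 9 arrays with group as the only term, adjusted by Benjamini and Hochberg over all genes and called at an adjusted p under 0.05. SE, 95% intervals and adjusted p are limma's, and SD is over 3 arrays. The fit was tested on simulated data with 200 changed genes. The members and all gene lists (pathway genes by role, T cell early genes, markers of other cells) were chosen with earlier results of these data known. Named are the members, up to 6 called pathway genes with the largest difference per comparison, genes of the same role, the 3 genes most like each member, and checks of the arrays; predicted genes and receptor segments were left out of the likeness search. Kat2a, with the smallest difference of the 7 called in chronic Th2 cells, falls outside this rule, as do genes called only when 1 array was left out, and these were named after their values were seen. Array sets were split where probe sets showed a gap of 1.5 or more between arrays, after seeing the data.

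Alternatives were each array left out, the replicate number as a block, array weights, the groups compared alone, all probe sets, a filter on dim genes, renewed quantile normalisation, the mean of a gene's probe sets, a trended robust variance, naive replicate 1 and chronic Th2 replicate 3 left out together, and, added after seeing the data, the array set as a term. Same-numbered arrays were checked for shared deviations from their group means: correlations ran from -0.0855 to 0.572 and 6 of 9 pairs exceeded 0.1. These values do not exclude shared deviations. The numbers were not taken to pair samples because no label says that they mark a shared animal or day.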

Additional observations from a re-analysis of the deposited data

How the results depend on the processing

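Counts of calls moved by over 1.5 times with array weights, with the groups compared alone, with naive replicate 1 and chronic Th2 replicate 3 left out together, and with single arrays left out; the cause was not tested. For the first 3 settings in that order, genes called over all genes were 4675, 686 and 4665 for chronic Th2 minus naive, 4019, 762 and 2624 for acute Th2 minus naive, and 6721, 2 and 1087 for chronic minus acute Th2. That last count was also 0 with the replicate block, 1 over all probe sets and 3 with a trended robust variance. Members called were 4, 0 and 4 for chronic Th2 minus naive, and 1 with the trended variance. They were 1 for acute Th2 minus naive with the groups alone, and 2 for chronic minus acute Th2 with array weights. These 2 were Notch1 and Notch2, lower in chronic cells (limma, adjusted p = 0.0304 and 0.0124). Within the array set of naive replicate 1 and within the other set, this difference was -0.13 and -0.13 for Notch1. It was -0.0035 and -0.27 for Notch2. Other pathway genes called were 20, 2 and 21 for chronic Th2 minus naive and 19, 3 and 13 for acute Th2 minus naive. For chronic minus acute Th2 they were 20 with weights and 4 with both arrays left out.

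With 1 array left out, all genes called ran from 734 to 3438, from 653 to 2424 and from 0 to 12 in these comparisons, the highest of each being without naive replicate 1. Members called ran from 0 to 3, from 0 to 4 and from 0 to 0, and other pathway genes from 2 to 17, from 2 to 13 and from 0 to 0. Where an arm then has 2 arrays, the spread is shared over all groups.

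Signs turned for differences near 0. Hes1 in chronic Th2 minus naive was -0.062 after quantile normalisation and -0.027 with both arrays left out. In chronic minus acute Th2, Maml2 was -0.11 with weights, -0.0047 as the mean of probe sets, -0.0058 with both arrays left out and -0.032 with the array set as a term, and Rbpj was 0.028 after quantile normalisation, 0.19 as the mean of probe sets and 0.23 with the array set. With 1 array left out, that comparison ran from -0.041 to 0.10 for Maml2, -0.076 to 0.025 for Rbpj, -0.13 to 0.059 for Hes1 and -0.19 to 0.033 for Dtx1. Hes1 ran from -0.037 to 0.11 in chronic Th2 minus naive and from -0.0011 to 0.15 in acute Th2 minus naive.

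The replicate block left the members called at 2 in chronic and 3 in acute Th2 cells, with 1844 and 1261 over all genes. Of 9 arrays, 6 correlated best with their own number, a hint from the data and not from the design. The filter on dim genes moved the median of all genes to -0.115 in chronic Th2 minus naive and -0.111 in chronic minus acute Th2, and left no value for Hes1. Quantile normalisation turned the share of calls that were higher in chronic than in acute Th2 cells to 80% of 5 genes, against 50% of 6. For chronic Th2 minus naive the share of calls that were higher was 55.5% of 1358 genes after it, against 46.7% of 1571 in the main fit. With the filter on dim genes that share was 39.5% of 1468. Probe sets near background limit what Hes1, Nrarp and the ligand genes can show.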
